A study of Mus musculus with 6 samples.

Results

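Levels of 50 genes of the cell cycle and of DNA replication were examined in mouse left ventricular myocardium. The members were fixed by name (cyclins, their kinases, kinase inhibitors, replication genes and genes of mitosis) and not by their values. All 50 were found, each as 1 of the 47729 gene IDs in the deposited table, and all 50 passed the filter on low counts. They were read in 3 groups: 12 genes of G1 and its inhibitors, 11 genes of S phase, and 27 genes of G2 and mitosis, called mitotic here, which include the proliferation marker Mki67.

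The tissue was taken 9 days after TAC, in which the aortic arch is surgically narrowed so that the left ventricle pumps against raised pressure. Both groups had this operation, so no library shows an unloaded heart. The study asked how regulatory T cells (Treg), induced in culture without CD28 and given systemically, bear on the remodelling of such hearts. There were 3 libraries labelled control and 3 labelled Treg. The sources used here do not give the treatment of the control mice, the strain, sex and age of the mice, or the dose and timing of the cells. Since the labels do not tie libraries to single animals, the p-values measure only the spread between these libraries, which may be technical.

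Dividing cells pass through a fixed order of programmes. In G1, D-type cyclins with Cdk4 and Cdk6, and then E-type cyclins with Cdk2, release E2F transcription factors, which switch on the genes of DNA replication; inhibitors such as the product of Cdkn1b hold these kinases back. Later, cyclin A and cyclin B with Cdk1, and kinases of the Aurora and Polo families, drive entry into mitosis and the separation of chromosomes. Adult cardiomyocytes rarely divide, while fibroblasts, endothelial cells and immune cells of the loaded heart can, and bulk tissue pools them all. In such tissue, fewer dividing cells and less RNA per dividing cell cannot be told apart.

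The libraries held 28937253 to 29979080 counts each. Control replicate 3 stood apart: across genes, its log2 levels correlated at 0.936 to 0.957 with the other libraries, which correlated at 0.967 to 0.991 among themselves. Treg replicate 3 held atrial muscle transcripts (sum of Myl7, Sln and Myl4 119 CPM, counts scaled to TMM-adjusted totals, against 2.79 to 4.81 elsewhere). The medians of the 3 groups, Cdkn1b and Ccnd2 are therefore also given without each of them. The 6 cardiomyocyte markers summed to 28900 to 46900 CPM, so all libraries carried heart muscle RNA.

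Mitotic genes differed far more within each group than between the groups. Control replicate 1 and Treg replicate 2 held little mitotic RNA, and the other 4 libraries held several times as much. The 27 mitotic genes summed to 39.2, 214 and 201 CPM in control replicates 1, 2 and 3, and to 173, 29.2 and 150 CPM in Treg replicates 1, 2 and 3. S phase genes were also lowest in control replicate 1 and Treg replicate 2, with smaller steps, at 83.0, 143 and 144 CPM in control and 128, 74.8 and 132 CPM in Treg. G1 genes summed to 277, 290 and 222 CPM in control and to 325, 259 and 351 CPM in Treg. Control replicate 3 had the lowest G1 sum, and there Ccnd2, the G1 gene of highest mean level, stood at 35.2 CPM against 67.0 to 121 elsewhere. Gene by gene, Treg replicate 2 was the lowest library for 6 of the 12 G1 genes and control replicate 3 for 3.

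**Figure D1:**
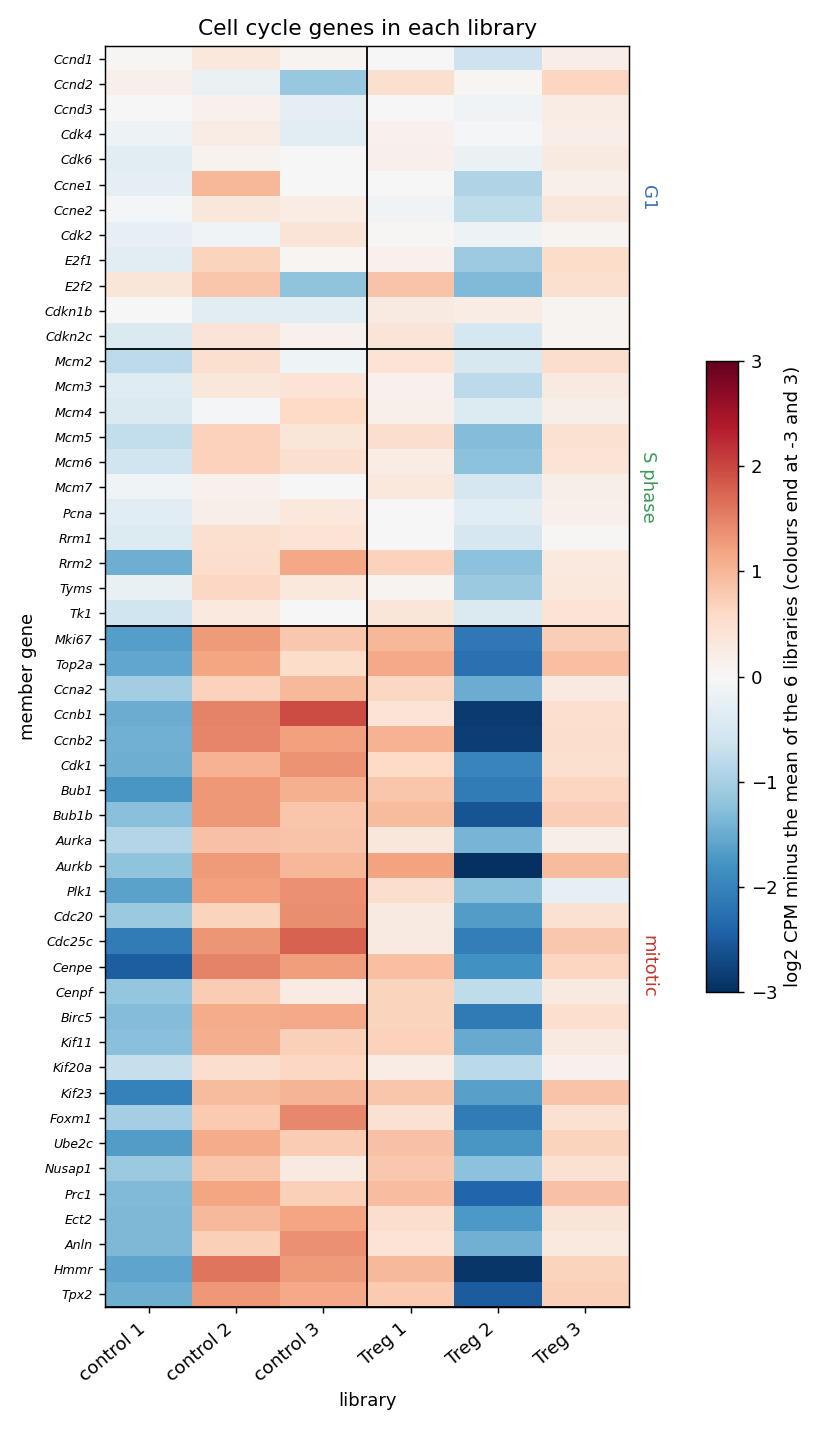
Level of each of the 50 members (rows, grouped by phase) in each of the 6 libraries (columns), as log2 CPM minus the mean of that gene over the libraries; red is above and blue below the mean. Control replicate 1 and Treg replicate 2 are blue for all 27 mitotic members, with medians of −1.35 and −1.98. Most G1 rows are paler, though E2f2 reaches −1.21 in control replicate 3 and −1.32 in Treg replicate 2.

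Control replicate 1 and Treg replicate 2 were the 2 lowest libraries for 27 of 27 mitotic genes, 11 of 11 S phase genes and 5 of 12 G1 genes (Cdk6, Ccne1, Cdk2, E2f1 and Cdkn2c). Over all 17365 genes tested, this order was found at 8.09%, and over the 6119 genes with a mean of 1 to 10 CPM at 10.9%. These shares are descriptions, since the order was noticed in these data. The median mitotic gene lay 1.12 and 1.07 above its 6-library mean (log2) in control replicates 2 and 3, and 0.68 and 0.51 above it in Treg replicates 1 and 3. Each of the 27 mitotic genes reached its highest level in control replicate 2 (15 genes) or control replicate 3 (12 genes). That was so for 2572 and 5787 of all genes tested.

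Mki67, which encodes the Ki-67 protein of dividing cells (chromosome 7, 135689784 to 135716361, GRCm38), stood at 4.60, 35.4 and 25.7 CPM in control replicates 1, 2 and 3 and at 29.1, 3.25 and 24.5 CPM in Treg. Top2a, the topoisomerase that untangles replicated DNA (chromosome 11, 98992943 to 99024189), stood at 3.12, 21.4 and 13.7 CPM in control and 20.5, 1.91 and 17.6 CPM in Treg. Both groups therefore held a low library and a pair of high ones, and they overlapped across nearly their whole range. The highest Mki67 level was 7.70 times the lowest among controls and 8.98 times the lowest among Treg libraries. The log2 fold change, Treg minus control, was −0.21 ± 0.86 (SE, 3 libraries a group throughout) for Mki67 and 0.07 ± 0.86 for Top2a, with edgeR adjusted p = 0.918 and 0.974.

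The kinase that drives mitotic entry and its cyclins had the same order. Ccnb1, cyclin B1, stood at 0.667, 5.69 and 7.94 CPM in control and 2.70, 0.216 and 2.86 CPM in Treg. Ccnb2, cyclin B2, stood at 0.772, 6.12 and 5.18 CPM in control and 4.62, 0.252 and 3.17 CPM in Treg. Cdk1, their partner kinase, stood at 1.26, 7.51 and 9.32 CPM in control and 5.51, 0.865 and 5.06 CPM in Treg. For each of these genes the 2 higher Treg libraries lay below control replicates 2 and 3 but above control replicate 1. Ccnb1 had the lowest log2 fold change of all members, −1.30 ± 0.96 (edgeR adjusted p = 0.509). Ccnb2 had −0.58 ± 0.94 and Cdk1 −0.66 ± 0.80 (edgeR adjusted p = 0.767 and 0.683). Low values rest on few reads: in Treg replicate 2, Ccnb1 and Ccnb2 had 6 and 7 counts.

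Mitotic kinases and regulators of chromosome separation followed. Aurka and Aurkb encode the Aurora kinases of the spindle poles and of the chromosomes. Aurka stood at 0.912, 3.21 and 3.16 CPM in control and 2.21, 0.613 and 1.95 CPM in Treg. Aurkb stood at 0.491, 3.08 and 2.49 CPM in control and 2.90, 0.0721 and 2.42 CPM in Treg, so its groups overlapped closely outside the 2 low libraries. Plk1, the Polo-like kinase of mitotic entry, stood at 0.386, 3.18 and 3.50 CPM in control and 1.91, 0.505 and 1.10 CPM in Treg. Cdc20 encodes an activator of the ligase that starts anaphase. It stood at 1.16, 4.14 and 6.90 CPM in control and 3.13, 0.757 and 3.55 CPM in Treg. Cdc25c, a phosphatase that activates Cdk1, was the member with the lowest mean level, at 0.0351, 1.03 and 1.41 CPM in control and 0.462, 0.0361 and 0.691 CPM in Treg. Plk1 had a log2 fold change of −1.0 ± 0.76, Cdc25c −1.03 ± 1.02, Cdc20 −0.71 ± 0.70, Aurka −0.61 ± 0.58 and Aurkb −0.16 ± 0.97. Cdc25c had 1 count in each low library, and Aurkb 2 counts in Treg replicate 2. The edgeR adjusted p of these 5 genes lay between 0.518 (Plk1) and 0.944 (Aurkb).

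The other 17 mitotic genes act at the centromere and spindle checkpoint (Bub1, Bub1b, Cenpe, Cenpf, Birc5), as motors or on spindle microtubules (Kif11, Kif20a, Kif23, Nusap1, Prc1, Hmmr, Tpx2), in cytokinesis (Ect2, Anln), in protein degradation (Ube2c), as a cyclin (Ccna2) or as a transcription factor of the mitotic programme (Foxm1). Their log2 fold changes lay between −0.72 (Foxm1) and 0.03 (Cenpf and Nusap1). Kif20a varied least within groups of all mitotic members (SD 0.66 in log2), and its exons overlap those of Cdc23 on the opposite strand. The library kit keeps strand, but the sources used here do not give the strand setting of the counting. Exons of 17 of the 50 members overlap a gene on the opposite strand and those of 3 (Mcm7, Top2a and Foxm1) a gene on the same strand, so these counts are less certain.

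**Figure D2:**
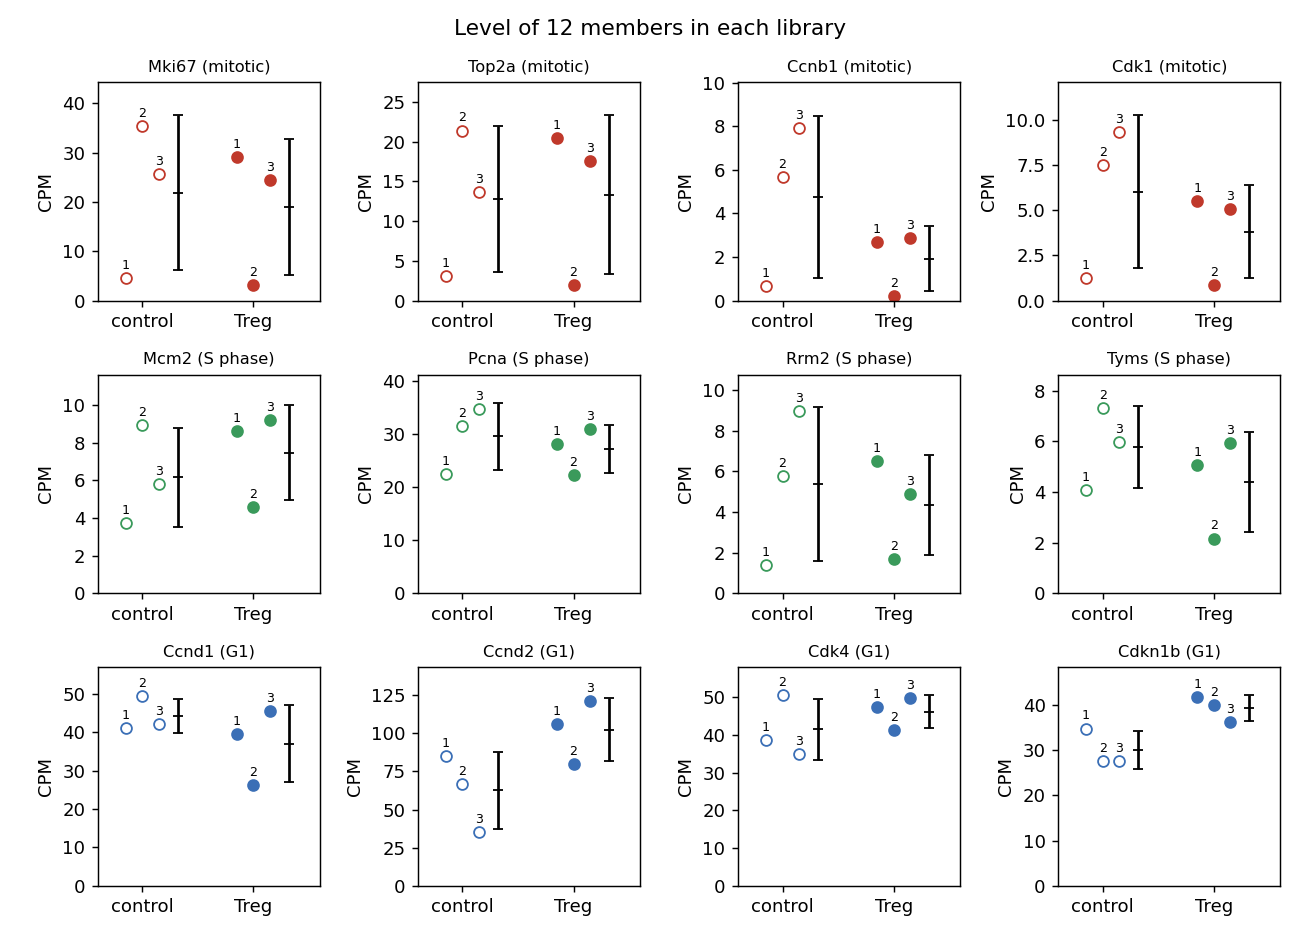
CPM (y axis, from 0) of 12 members in each library: 4 mitotic, 4 of S phase and 4 of G1; open circles are control, filled circles Treg, the small number is the replicate, and the bar is the mean with its SD. In the mitotic panels control replicate 1 and Treg replicate 2 sit near 0; in the Cdkn1b panel every Treg point lies above every control point.

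Promoter sequence is shown for members of each phase, and short sequence elements in it were counted. Whether these elements bear on the order of the libraries was not tested. Windows from 250 bases before to 50 bases after the annotated start were available from RefSeq (GRCm38.p6) for 40 of the 50 members. They were searched on both strands for CCAAT, for TTTGAA or TTTAAA (letters of the cell cycle homology element of late genes), and for the E2F-type letters TTTGGCGC, TTTCCCGC or TTTCGCGC. The stretches below end at the start, or at the first base outside annotated exons. They run 5′ to 3′ along the gene's strand, with matches on either strand in capitals; TTTAAA is its own complement, and in Mcm6 the first TTTGGCGC overlaps a TTTCGCGC on the opposite strand. Ccnb2 lies at chr9:70421555-70421704, minus strand; Cdk1 at chr10:69352939-69353062, minus strand; Top2a at chr11:99024190-99024339, minus strand; Mki67 at chr7:135716380-135716529, minus strand. Of the other phases, Mcm6 (S phase) lies at chr1:128359706-128359855, minus strand, and Cdkn1b (G1) at chr6:134920251-134920400, plus strand.
Ccnb2: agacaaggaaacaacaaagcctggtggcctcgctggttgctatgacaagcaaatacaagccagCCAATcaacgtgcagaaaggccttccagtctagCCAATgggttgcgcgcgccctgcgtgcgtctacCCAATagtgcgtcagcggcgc
Cdk1: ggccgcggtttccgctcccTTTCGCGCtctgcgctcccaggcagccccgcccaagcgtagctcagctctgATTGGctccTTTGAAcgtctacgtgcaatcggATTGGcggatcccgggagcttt
Top2a: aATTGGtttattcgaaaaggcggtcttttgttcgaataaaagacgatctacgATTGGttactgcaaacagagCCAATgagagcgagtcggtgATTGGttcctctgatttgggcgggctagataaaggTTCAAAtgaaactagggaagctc
Mki67: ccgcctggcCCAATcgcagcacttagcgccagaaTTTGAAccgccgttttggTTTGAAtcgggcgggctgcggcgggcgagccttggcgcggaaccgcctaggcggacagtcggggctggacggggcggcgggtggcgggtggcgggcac
Mcm6: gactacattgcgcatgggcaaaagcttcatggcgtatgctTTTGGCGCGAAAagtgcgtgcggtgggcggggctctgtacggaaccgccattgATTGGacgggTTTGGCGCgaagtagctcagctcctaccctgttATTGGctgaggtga
Cdkn1b: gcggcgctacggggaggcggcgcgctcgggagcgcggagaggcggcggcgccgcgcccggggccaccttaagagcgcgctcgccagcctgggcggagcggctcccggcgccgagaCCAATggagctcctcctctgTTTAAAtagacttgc

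CCAAT was present in the windows of 18 of 21 mitotic genes (85.7%), 8 of 10 S phase genes (80%) and 5 of 9 G1 genes (55.6%), against 41.1% of all 27025 genes with a window. At least 2 CCAAT were present in 57.1% of the mitotic genes and 13.3% of all genes. TTTGAA or TTTAAA was present in 19 of 21 mitotic genes (90.5%), in 40% of S phase genes and in 33.3% of G1 genes, against 30.6% of all genes. Both at least 2 CCAAT and 1 of these elements were present in 11 of 21 mitotic genes (52.4%) and in 3.62% of all genes. The E2F-type letters were present in 4 of 10 S phase genes (40%), 2 of 9 G1 genes (22.2%) and 1 of 21 mitotic genes (4.76%, Cdk1), against 2.12% of all genes. These are matches of letters, described with no test, and no binding was measured.

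S phase genes covered the replicative helicase, the sliding clamp and enzymes that make nucleotides. Mcm2 and Mcm3 encode helicase subunits. Mcm2 stood at 3.72, 8.94 and 5.82 CPM in control and 8.61, 4.58 and 9.23 CPM in Treg, and Mcm3 at 6.42, 10.5 and 10.9 CPM in control and 9.10, 4.76 and 9.86 CPM in Treg. Pcna, the clamp that holds DNA polymerase, stood at 22.5, 31.5 and 34.7 CPM in control and 28.2, 22.2 and 31.0 CPM in Treg. All 3 genes overlapped between the groups, with control replicate 1 and Treg replicate 2 lowest. A pseudogene of Pcna, Pcna-ps2, had a mean level of 2.19 CPM against 28.3 for Pcna, and the sources used here do not say how reads were divided between them.

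Among the nucleotide enzymes, Rrm2, the regulated subunit of ribonucleotide reductase, had the widest spread of the S phase genes, at 1.40, 5.79 and 8.95 CPM in control and 6.50, 1.66 and 4.90 CPM in Treg (SD within groups 1.20 in log2). Rrm1, the large subunit, stood at 14.9, 27.9 and 26.6 CPM in control and 19.7, 14.1 and 20.5 CPM in Treg. The thymidylate synthase gene Tyms stood at 4.07, 7.31 and 5.96 CPM in control and 5.08, 2.16 and 5.93 CPM in Treg. Tk1, the thymidine kinase of dividing cells, stood at 4.70, 8.84 and 7.14 CPM in control and 9.23, 5.26 and 9.48 CPM in Treg. For Rrm1 the higher Treg libraries lay below control replicates 2 and 3, whereas for Tk1 they lay above all controls. Log2 fold changes of the 11 S phase genes ran from −0.39 ± 0.39 (Tyms, edgeR adjusted p = 0.613) to 0.28 ± 0.37 (Mcm2, edgeR adjusted p = 0.716). The smallest adjusted p was 0.510, for Rrm1 (−0.35 ± 0.26).

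By their median spread, the G1 genes were the steadiest of the 3 groups, and they held Cdkn1b, the 1 of 50 members whose groups did not overlap; over all genes tested, the groups did not overlap at 25.4%, and at 13.7% with Treg above. Cdkn1b encodes the CDK inhibitor p27 (chromosome 6, 134920401 to 134925513). It stood at 34.8, 27.6 and 27.7 CPM in control and 41.7, 40.1 and 36.2 CPM in Treg. The means were 30.1 ± 4.15 and 39.3 ± 2.80 CPM (SD, n = 3). Every Treg library lay above every control library, including the 2 libraries that were low for mitotic genes. The log2 fold change was 0.39 ± 0.14, with unadjusted p = 0.0244 and adjusted p = 0.257 by edgeR. It did not pass the threshold, and without control replicate 3 or Treg replicate 3 it was 0.33 and 0.45 (edgeR adjusted p = 0.232 and 0.467).

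Of the D-type cyclins, Ccnd2 stood at 85.4, 67.0 and 35.2 CPM in control and 106, 80.0 and 121 CPM in Treg. Control replicate 3 was the lowest library and the groups overlapped only through control replicate 1 and Treg replicate 2. Its log2 fold change of 0.71 ± 0.32 was the highest of all members (edgeR unadjusted p = 0.0568, adjusted p = 0.315), and without control replicate 3 or Treg replicate 3 it was 0.43 and 0.58. Ccnd1 stood at 41.0, 49.4 and 42.2 CPM in control and 39.5, 26.1 and 45.5 CPM in Treg (−0.25 ± 0.21), and Ccnd3 at 39.3, 42.5 and 32.3 CPM in control and 39.1, 36.4 and 45.3 CPM in Treg (0.08 ± 0.15). Both overlapped, with Ccnd1 lowest in Treg replicate 2 and Ccnd3 lowest in control replicate 3. Their partner kinases were steady: Cdk4 stood at 38.7, 50.6 and 35.0 CPM in control and 47.5, 41.3 and 49.7 CPM in Treg (0.16 ± 0.17). Cdk6 stood at 15.1, 20.0 and 18.6 CPM in control and 20.8, 16.3 and 22.5 CPM in Treg (0.15 ± 0.18).

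The E-type cyclins, their kinase and the E2F factors were scarcer. Ccne1 stood at 1.33, 3.31 and 1.62 CPM in control and 1.65, 0.829 and 1.82 CPM in Treg, and Ccne2 at 3.37, 4.40 and 4.07 CPM in control and 3.20, 2.02 and 4.43 CPM in Treg. Cdk2 stood at 9.51, 10.6 and 14.7 CPM in control and 11.5, 10.1 and 12 CPM in Treg. E2f1, an activator of replication genes, stood at 1.93, 3.91 and 2.56 CPM in control and 2.67, 1.12 and 3.64 CPM in Treg. All 4 overlapped between the groups, and all but Cdk2 were lowest in Treg replicate 2. E2f2 stood at 1.54, 2.15 and 0.471 CPM in control and 2.18, 0.433 and 1.66 CPM in Treg, low in control replicate 3 and in Treg replicate 2. Cdkn2c, an inhibitor of Cdk4 and Cdk6, stood at 5.02, 8.90 and 7.41 CPM in control and 8.97, 4.69 and 7.22 CPM in Treg. The log2 fold changes of these 6 genes lay between −0.54 ± 0.44 (Ccne1) and 0.04 ± 0.66 (E2f2), and the adjusted p of the 11 G1 genes other than Cdkn1b lay between 0.315 and 0.979 by edgeR.

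Per kilobase of exon, the G1 genes had the highest levels: their median was 2.23 CPM per kilobase, against 1.78 for S phase and 0.802 for mitotic genes. Cdk4 was highest, at 13.5 CPM per kilobase, followed by Pcna at 11.8. Ccnb2 was the highest mitotic gene at 2.19, and Cdc25c the lowest of all members at 0.124. The median over all genes tested was 2.90.

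**Figure D3:**
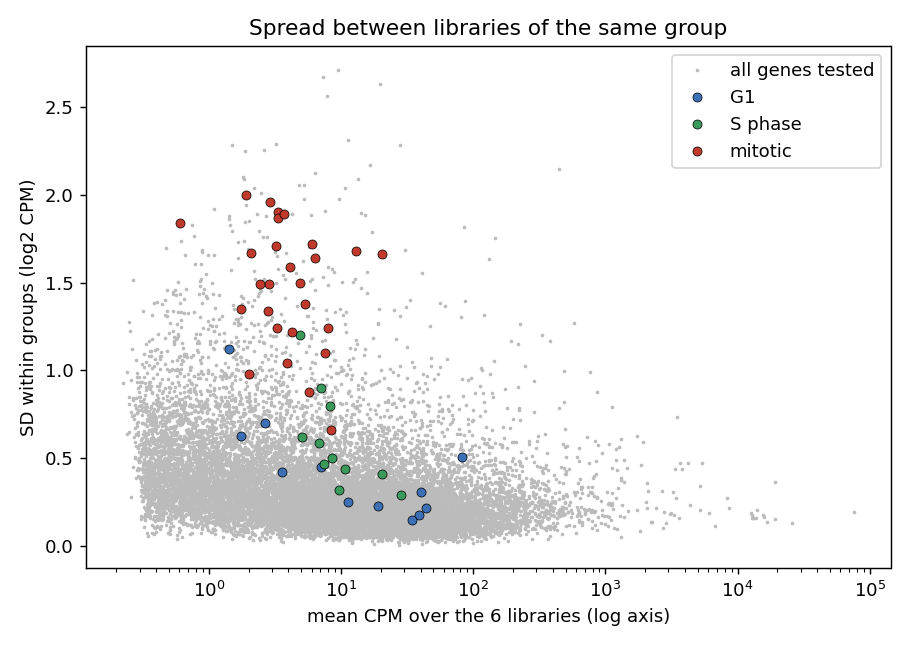
SD of log2 CPM within groups (y axis) against mean CPM (x axis, log scale) for all 17365 genes tested (grey) and the members (coloured by phase). The mitotic genes lie at 0.66 to 2.00, with a median of 1.5, above most genes of like level; S phase genes have a median of 0.50 and G1 genes 0.36.

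The spread between libraries of the same group set the precision of the comparison. The median SD within groups was 1.5 (log2) for mitotic, 0.50 for S phase and 0.36 for G1 genes, against 0.26 for all genes tested and 0.30 for genes with a mean of 1 to 10 CPM. The highest library was a median of 6.80 times the lowest for mitotic genes in control and 6.79 times in Treg; for all genes these values were 1.49 and 1.23. Mitotic log2 fold changes accordingly carried a median SE of 0.80, against 0.32 for S phase genes, 0.25 for G1 genes and 0.22 for all genes.

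Between the groups, no member passed the test. By edgeR's quasi-likelihood test with Benjamini-Hochberg adjustment over 17365 genes, 0 of 50 members and 0% of all genes had an adjusted p under 0.05. At an unadjusted p under 0.05 there was 1 member, Cdkn1b, by edgeR, and 2 members, Cdkn1b and Ccnd2, by both DESeq2 and limma-voom; 16.5% of all genes were under it by edgeR, 8.23% higher and 8.31% lower in Treg, 16.7% by DESeq2 and 16.3% by limma-voom. DESeq2 called 3.71% of all genes at an adjusted p under 0.05 and 0 members (smallest adjusted p 0.222, Cdkn1b). The share of members whose groups did not overlap, 1 of 50, was below the 25.4% of all genes.

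The log2 fold changes of the mitotic genes lay mostly below 0, but by less than the libraries of a group differed. Their median was −0.50, with 24 of 27 below 0, where 52% of all genes were below 0 and the median of all genes was −0.02. S phase genes had a median of −0.13, with 8 of 11 below 0, and G1 genes 0.01, with 6 of 12 below 0. The mitotic genes rise and fall together across libraries, so their shared sign is not 27 separate observations. The SD within groups of the median mitotic level of a library was 1.45, and that of the S phase and G1 medians 0.47 and 0.26.

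**Figure D4:**
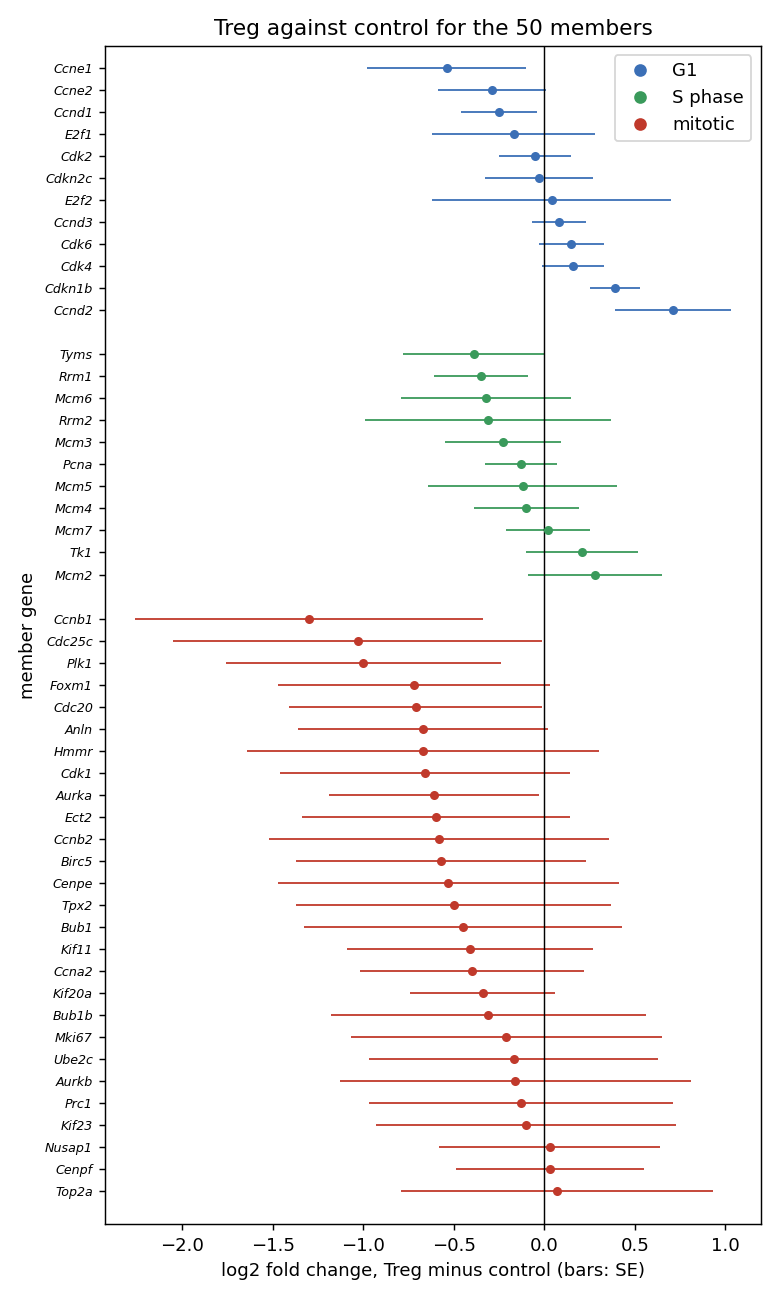
Log2 fold change, Treg minus control (x axis), with its SE as a bar, for each of the 50 members (rows) ordered within phases. Mitotic genes run from −1.30 (Ccnb1) to 0.07 (Top2a) with long bars, while the G1 genes have shorter bars and lie on both sides of 0.

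The mitotic median moved when any library was omitted, and farthest when 1 of the 2 low libraries was. Without control replicate 1 it was −0.97, with 27 of 27 genes below 0, and without Treg replicate 2 it was −0.04, with 14 of 27 below 0. Omission of control replicate 2 or 3 gave −0.14 and −0.20, omission of Treg replicate 1 or 3 gave −0.88 and −0.72, and leaving both control 3 and Treg 3 out gave −0.45. For S phase genes, omitting control replicate 1 gave a median of −0.42 and omitting Treg replicate 2 gave 0.07. It was −0.07 and 0.00 when control replicate 2 or 3 was omitted, −0.34 when either Treg replicate 1 or Treg replicate 3 was, and −0.11 with control 3 and Treg 3 both left out. The G1 median lay between −0.14 (Treg replicate 1 omitted) and 0.18 (Treg replicate 2 omitted), and was −0.01 and −0.07 with control replicate 3 or Treg replicate 3 omitted. Without control replicate 1, 25 of 50 members did not overlap between the groups, 23 of them lower in Treg. Over all genes in that comparison 43.3% did not overlap, and 21.6% did so with Treg lower. Without Treg replicate 2, 5 members did not overlap, all higher in Treg, against 33.5% of all genes, and 17.3% with Treg higher. In neither comparison did a member pass edgeR's adjusted threshold; the smallest adjusted p was 0.11 (Cdkn1b, without control replicate 1) and 0.521 (Ccnd2, without Treg replicate 2). Without control replicate 3, where edgeR called 1.3% of all genes, it called 0 members.

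Other genes of the same programmes, taken from lists by function, differed by phase in a like way. Of 39 further mitotic genes, 37 (94.9%) were lowest in control replicate 1 and Treg replicate 2, of 24 further replication genes 15 (62.5%), and of 20 further G1 and checkpoint genes 6 (30%). Their median log2 fold changes were −0.32, −0.13 and −0.07. In none of the 3 lists did a gene pass edgeR's adjusted threshold or DESeq2's. At an unadjusted p under 0.05 by edgeR there were 0 mitotic genes, 1 replication gene (Gins3, of the replicative helicase complex, higher) and 2 G1 and checkpoint genes (Rbl2 higher, Cdkn1a lower). The share over all genes tested was 16.5%. Within groups, the median SD was 1.26 for the mitotic, 0.47 for the replication and 0.35 for the G1 and checkpoint list.

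Cdkn1a, the p53 target that encodes the CDK inhibitor p21, stood at 30.2, 40.5 and 168 CPM in control and 18.2, 25.7 and 22.4 CPM in Treg. Every Treg library lay below every control, as for 11.7% of all genes tested, and control replicate 3 was several times above the rest. Its log2 fold change was −1.85 ± 0.62 (edgeR adjusted p = 0.241), and −0.68 without control replicate 3 (edgeR adjusted p = 0.105). Rbl2, a pocket protein that restrains E2F genes in resting cells, stood at 33.9, 22.6 and 23.5 CPM in control and 36.6, 35.8 and 34.2 CPM in Treg (0.41 ± 0.17, edgeR adjusted p = 0.295). All its Treg libraries lay above every control, as for 13.7% of all genes tested. Myc, a driver of cell growth, stood at 4.63, 5.66 and 16.4 CPM in control and 4.75, 3.64 and 4.93 CPM in Treg (−1.0 ± 0.47, edgeR adjusted p = 0.335). Its high value was again in control replicate 3, and without that library the log2 fold change was −0.21.

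The cell type markers of the 2 low libraries were read beside these values. The 6 cardiomyocyte markers summed to 43100, 37900 and 28900 CPM in control and 37800, 46900 and 33800 CPM in Treg, highest in Treg replicate 2 and control replicate 1. Of the 6, only Myh6, the most abundant, had this order (23400 and 24100 CPM against 12500 to 20200). Tnnt2 was highest in control replicate 2, and Ryr2 was highest in control replicate 1 and next in control replicate 2. Actc1 and Myl2 were highest in Treg replicate 2 and next in Treg replicate 1. Tnni3 was highest in Treg replicate 2 but lowest in control replicate 1 (1530 CPM against 1890 to 2610). The 6 macrophage markers summed to 208, 335 and 264 CPM in control and 288, 240 and 323 CPM in Treg, lowest in those 2 libraries. Cd68, C1qa and Mrc1, 3 of the 6, were lowest in both, whereas Csf1r and Adgre1 were lowest in control replicate 3 (47.1 and 5.86 CPM). The 5 fibroblast markers summed to 1610, 2020 and 1630 CPM in control and 1760, 1390 and 2100 CPM in Treg, but 0 of the 5 had those 2 libraries as their lowest: Pdgfra and Col1a1 were lowest in Treg replicate 2, Dcn in control replicate 2, and Lum and Tcf21 in control replicate 3. Of the 4 markers of activated fibroblasts, Postn, Cthrc1 and Fap were lowest in Treg replicate 2 but not in control replicate 1 (Postn 733 and 1420 CPM against 785 to 2070), and Tnc was lowest in control replicate 1 and next in Treg replicate 2 (12.5 and 18.6 CPM against 30.4 to 297). The part of these cell types in the mitotic levels was not tested.

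**Figure D5:**
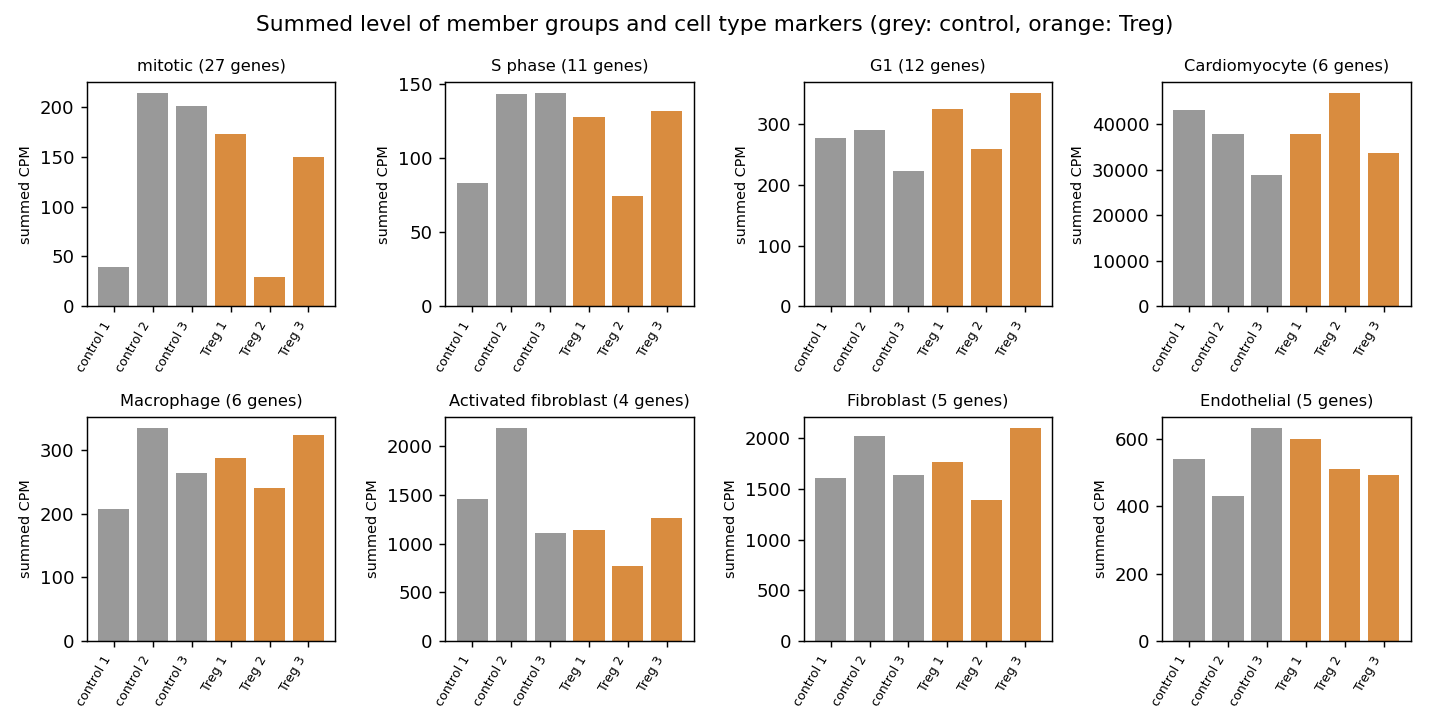
Summed CPM (y axis, from 0) in each library for the 3 phases and for 5 cell type marker lists; grey bars are control and orange bars Treg. The mitotic sum is 39.2 in control replicate 1 and 29.2 in Treg replicate 2 against 150 to 214 elsewhere. The cardiomyocyte and macrophage sums are respectively highest and lowest in those 2 libraries. Of the cardiomyocyte markers only Myh6 is highest in both. Of the others, 3 of the 6 macrophage markers and 0 of the 5 fibroblast markers are lowest in both.

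Endothelial markers (5 genes, 431 to 634 CPM in control, 495 to 602 in Treg) were lowest in control replicate 2. Mural cell markers (4 genes, 518 to 663 CPM in control, 554 to 688 in Treg) had no shared order: Rgs5 was highest in Treg replicate 2, Pdgfrb and Cspg4 in control replicate 3, and Notch3 in Treg replicate 1. Cspg4 lay below every control in all Treg libraries (−0.48 ± 0.14, edgeR adjusted p = 0.207), as for 11.7% of all genes tested. Among cardiomyocyte and fibroblast markers, Actc1, Myl2 and Dcn lay above every control in all Treg libraries, as for 13.7% of all genes tested. The sum of neutrophil markers (5 genes) was highest in control replicate 3, at 35.5 CPM against 6.60 to 18.0 elsewhere. Of these, 4 were highest there, whereas Csf3r was highest in Treg replicate 1 (7.09 CPM against 5.72 in control replicate 3). Erythroid markers (6 genes) had their lowest sum in control replicate 3, at 292 CPM against 1070 to 2850. Of 6 T cell markers only Cd3e passed the filter, at 81.5, 36 and 465 counts in control and 12, 16 and 15 in Treg. Its Treg libraries all lay below every control, as for 11.7% of all genes tested. The log2 fold change of Cd3e was −3.76 ± 0.96 (adjusted p = 0.177 by edgeR and 0.000179 by DESeq2). Without control replicate 3 it was −2.07 (edgeR adjusted p = 0.0572). In control replicate 3, where Cd3e had 465 counts, Cd3d had 3, Cd2 2, Cd8a 1, and Cd3g and Trac 0 counts. Trac and Cd8a, which did not pass the filter, lay above every control in all Treg libraries, at no more than 13 counts. Cd3d and Cd3g had 0 counts in 2 libraries each, and Cd2 and Trac in 1 each. Of 4 regulatory T cell markers 3 passed the filter. Foxp3, their defining factor, had 42.75 to 51.17 counts in control and 41.5 to 55.92 in Treg libraries. Il2ra, the interleukin 2 receptor alpha chain, stood at 0.597, 0.0993 and 0.269 CPM in control and 0.758, 1.37 and 1.00 CPM in Treg, a log2 fold change of 1.69 ± 0.55 (edgeR adjusted p = 0.235). Ikzf2 stood at 4.0, 3.31 and 1.25 CPM in control and 4.19, 4.18 and 4.80 CPM in Treg (0.62 ± 0.39, edgeR adjusted p = 0.442). Both lay above every control in all Treg libraries, as for 13.7% of all genes tested, and did not pass the threshold. Of the 4 regulatory T cell markers, 0 had control replicate 1 and Treg replicate 2 lowest. The scaling factors of the libraries were also lowest in the 2 libraries low for mitotic genes, at 0.955 in control replicate 1 and 0.926 in Treg replicate 2 against 1.014 to 1.067 elsewhere. Scaled by library totals alone, those libraries were again the lowest for 27 of 27 mitotic and 11 of 11 S phase genes.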

How the data were processed

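RNA of 6 left ventricular samples was sequenced as stranded mRNA libraries, per the labels' protocols. The values deposited by the authors are estimated counts per gene, made from the mapped reads and not normalized; 46.5% to 50.0% of each library's nonzero values are fractions, whose origin the sources used here do not state. The submitters' processing notes name GRCm38 and, with no roles, featureCounts 2.0.6, HISAT2 2.1.0, Cuffdiff 2.2.1 and Trimmomatic 0.39. A further 6 columns match no sample here and were not used.

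Estimated counts were rounded to whole numbers. Genes kept by filterByExpr (17365) were scaled by TMM and tested two-sided with edgeR 4.0.16 (robust quasi-likelihood F test, R 4.3.3), adjusted by Benjamini-Hochberg at 0.05; the SE was taken as log2 fold change over √F. CPM uses TMM-scaled totals; log2 CPM adds a prior count of 2. Alternatives were DESeq2 1.42.0, limma-voom (limma 3.58.1), other scalings and filters, a block for the replicate number, and omission of libraries; scalings and omissions for the order of libraries were added after seeing the data. The test was checked on simulated counts. Symbols, coordinates and exon lengths are GENCODE M21 (47224 of 47729 IDs matched). In 38 members at least 1 value was fractional, and 4 (Ccnd3, Pcna, Ccnb1 and Ccnb2) have a named pseudogene in the table.

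The members and lists were chosen with earlier results of these data known. Named with values in every library were all G1 members, the 5 of smallest p in the S phase and mitotic groups, and Mcm2, Pcna, Rrm2, Mki67, Top2a, Ccnb1, Ccnb2, Cdk1 and Aurkb; of other lists, genes among the 3 of smallest p in each direction. Of the library totals and correlations, only ranges are given. Depth was near equal, so counting error matters mainly for members with few counts.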

Additional observations from a re-analysis of the deposited data

How the results depend on the processing

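No member passed an adjusted p of 0.05 under any of the alternatives run, and the smallest was 0.11. Over all genes, DESeq2 called 644, edgeR without a filter 38, edgeR at an adjusted p under 0.1 82, and edgeR with libraries left out 0 to 230. At an unadjusted p under 0.05 there were 2 members by DESeq2 and by limma-voom (16.7% and 16.3% of all genes), and 0 to 4 with libraries left out (7.95% to 22.5% of all genes). Members whose groups did not overlap numbered 1 to 25 with libraries left out, against 30.7% to 48.4% of all genes. Of 29 named members, 18 kept the sign of their log2 fold change in every alternative run and 11 did not; there were 15 alternatives, of which Cdc25c entered 14, since it failed the filter at a mean of 1 CPM. With libraries left out, the log2 fold change ran from −0.12 to 0.17 for Ccnd3, −0.02 to 0.32 for Cdk4, −0.16 to 0.16 for Cdk2, −0.63 to 0.17 for E2f1, −0.51 to 0.50 for E2f2, −0.25 to 0.19 for Cdkn2c, −0.42 to 0.03 for Mcm3, −0.75 to 0.27 for Rrm2, −0.68 to 0.34 for Mki67, −0.38 to 0.68 for Top2a and −0.68 to 0.40 for Aurkb; Top2a had −0.11 by limma-voom. The cause was not tested. Where a group keeps 2 libraries, its spread is assumed to be like that of the other group.

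The replicate numbers were not found to pair the libraries: deviations of same-numbered libraries correlated at −0.142, −0.236 and 0.042, and the labels name no shared litter or day. With a replicate block, edgeR called 0 genes, and the median log2 fold change was 0.02 for G1, −0.17 for S phase and −0.44 for mitotic genes. Control replicate 1 and Treg replicate 2 were the lowest libraries for 43 of 50 members, and for 43 to 45 under the other scalings and without control replicate 3 or Treg replicate 3.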

Other observations

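Of the 39 further mitotic genes, 2 did not have control replicate 1 and Treg replicate 2 as their lowest libraries. Stmn1, a microtubule-destabilising protein, stood at 4.56, 10.5 and 3.27 CPM in control and 12.5, 6.2 and 11.9 CPM in Treg, lowest in control replicate 3. Cenpa, the histone variant of the centromere, stood at 34.1, 35.1 and 18.9 CPM in control and 33.1, 35.7 and 28.7 CPM in Treg, again lowest in control replicate 3. Ccng1, a p53 target, was lowest in that library too, at 284 CPM against 609 to 823 elsewhere. All Treg libraries lay above every control for Ccng1, as for 13.7% of all genes tested. Its log2 fold change was 0.54 ± 0.30 (edgeR adjusted p = 0.407), and 0.24 without control replicate 3. Gins3 stood at 1.40, 1.82 and 1.68 CPM in control and 2.34, 2.09 and 2.73 CPM in Treg (0.55 ± 0.23, edgeR adjusted p = 0.293). Its Treg libraries all lay above every control, as for 13.7% of all genes tested.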
